A study of Mus musculus with 8 samples.

Results

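The genes described here encode the initiation and elongation factors of cytosolic translation, together with proteins that bind or modify them. They were chosen by name, as rows of the count table whose symbol starts with Eif or Eef followed by a digit. The genes of the eIF2 gamma subunit on the sex chromosomes (Eif2s3x, Eif2s3y), the eIF2 kinases (Eif2ak1 to Eif2ak4) and symbols ending in -ps were left out. This rule gave 83 of the 56691 rows. Of these 83 genes, 79 had at least 1 count, 4 had 0 counts in every library (Eif4e1b, Eif2c5, Eif1ad9 and Eif1ad18), and 59 passed the filter on low counts and were tested.

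RNA was sequenced from organoids grown from hindstomach (glandular stomach) epithelium of mouse embryos at E18.5. The 4 YAP5SA samples carry Shh-Cre;YAP5SA, in which cells with Cre make YAP5SA, an activated form of the Hippo pathway effector YAP whose inhibitory phosphorylation sites are changed to alanine. The 4 Ctrl samples carry Shh-Cre alone, so the Cre driver, which is expressed from Shh, is shared by both groups. All 8 cultures had 5 days of growth medium and then 7 days of differentiation medium. The labels do not say how many embryos or litters the cultures came from, so p-values measure the spread between these samples, which may be technical. The comparison asks which translation factor genes differ between organoids with activated YAP and organoids without it.

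Translation of most mRNAs starts when the cap-binding complex eIF4F (eIF4E, the scaffold eIF4G and the helicase eIF4A) recruits a small ribosomal subunit that carries eIF3, eIF1, eIF1A, eIF5 and the eIF2-bound initiator tRNA. The subunit scans to the start codon, eIF2 releases its GDP-bound form for recharging by eIF2B, and eIF5B joins the large subunit. eEF1A then delivers aminoacyl-tRNAs, eEF2 moves the ribosome along, and eIF5A helps at stretches that are slow to form peptide bonds. Supply of these factors is a known control point of cell growth, through mTORC1, the 4E-binding proteins and phosphorylation of eIF2.

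Libraries held 17387372 to 21039926 counts in YAP5SA and 18225648 to 25841256 in Ctrl. Yap1 itself, in counts scaled to a common library total (CPM), had 139.6 ± 2.21 CPM in YAP5SA and 118 ± 11.0 CPM in Ctrl (SD, n = 4 each; log2 fold change 0.25 ± 0.08, adjusted p = 0.0111). Ccn1, a gene widely used as a readout of YAP, had 432 CPM in YAP5SA and 31.9 CPM in Ctrl, and all 4 YAP5SA libraries lay above all Ctrl libraries for both genes. The 6 epithelial markers summed to 9250 to 10900 CPM in YAP5SA and 15600 to 17100 CPM in Ctrl, and the 8 gastric epithelial markers to 4100 to 5780 CPM in YAP5SA and 37400 to 61700 CPM in Ctrl. All 8 gastric markers were called lower, whereas of the 6 epithelial markers Krt8, Krt19 and Cdh1 were called lower, Epcam (591 CPM in YAP5SA and 296 CPM in Ctrl) and Cldn7 were called higher, and Krt18 was not called. The 10 fibroblast and smooth muscle markers summed to 1.37 to 1.68 CPM in YAP5SA and 0.391 to 0.75 CPM in Ctrl, with Col1a2 and Lum at 0. The 6 endothelial markers summed to 0 to 0.456 CPM in YAP5SA and 0.335 to 0.888 CPM in Ctrl, with Cldn5 at 0. The 8 blood and immune markers summed to 66.4 to 73.1 CPM in YAP5SA and 8.9 to 17.9 CPM in Ctrl, nearly all of it from Csf1r and Cd68, with Tyrobp at 0. In all YAP5SA libraries the Y-linked Ddx3y, Uty and Kdm5d were counted and Xist averaged 0.178 CPM, whereas Xist averaged 524 CPM in Ctrl and the Y-linked genes were at 0, so genotype and sex cannot be told apart. The part of these differences in the results below was not tested, and in bulk RNA fewer cells of a type and less RNA per cell cannot be told apart.

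Translation factor genes took up a larger share of the counts in YAP5SA organoids. All 83 together held 2.68%, 2.68%, 2.49% and 2.45% of the counts of the YAP5SA libraries, against 2.09%, 1.69%, 1.80% and 1.87% of the counts of the Ctrl libraries. The groups did not overlap. Initiation factor genes alone held 1.15% to 1.21% in YAP5SA and 0.875% to 0.996% in Ctrl, and elongation factor genes 1.27% to 1.48% in YAP5SA and 0.816% to 1.09% in Ctrl. Eef1a1, which encodes the tRNA-delivering eEF1A, was the most counted of them, with 0.940% to 1.13% in YAP5SA and 0.589% to 0.782% in Ctrl. These shares are of raw totals. TMM scaling factors ran from 1.04 to 1.08 in YAP5SA and from 0.920 to 0.974 in Ctrl, so the scaled differences are smaller, and all CPM and fold changes below are scaled.

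Calls went in both directions within most of the roles by which the members were grouped. With edgeR's quasi-likelihood F test over all genes, 39 of the 59 tested members were called at an adjusted p under 0.05, or 66.1%, against 64.5% of the 13812 genes tested. Of the members, 23 (39.0%) were higher and 16 (27.1%) lower in YAP5SA, against 33.1% and 31.3% of all genes. The median log2 fold change, YAP5SA over Ctrl, was 0.14 over the 59 members and 0.02 over all genes. In 36 tested members (61%) the CPM of the groups did not overlap, which held for 58.7% of all genes. Among the 59 tested, 21 (35.6%) were higher and 15 (25.4%) lower in YAP5SA in this sense, against 30.4% and 28.3% of all genes. Of the 59 tested members, 10 (16.9%) were called and over 1.5-fold higher and 6 (10.2%) over 1.5-fold lower, against 22.8% and 19.7% of all genes. Among them 3 (5.08%) were over 2-fold higher (Eif5a2, Eif2a and Eif4a2), where 14% of all genes were, and 2 (3.39%) were over 2-fold lower (Eif3j2 and Eif4e3), where 11.5% of all genes were. The members' 10th and 90th percentiles of log2 fold change were -0.56 and 0.84, against -1.12 and 1.30 over all genes. The share of members called was thus near that of all genes. When libraries were scaled by total counts alone, which moves the median over all genes to 0.19 and the members' median to 0.32, 32 members were called higher and 12 lower. That scaling ended the calls of Eif1, Eif2b4, Eif4e2 and Eif6, scaling on 10 reference genes ended those of Eef1b2, Eef2, Eif3g, Eif3k and Eif4a1, and a minimum fold of 1.2 ended these and that of Eif1ax. Of the 10 reference genes, 7 (70%) were themselves called in the main fit, 5 higher and 2 lower. Their median log2 fold change was 0.12, so scaling on them is not a check against unchanged genes. Scaling by total counts also called Eef1d, Eef1g, Eif1b, Eif3c, Eif3d, Eif3i, Eif3j1, Eif4a3 and Eif5a higher, and the reference gene scaling called Eif1ad and Eif4enif1 lower. The members' median was 0.0719 without Ctrl library 2 and 0.0643 without Ctrl library 3.

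**Figure D1:**
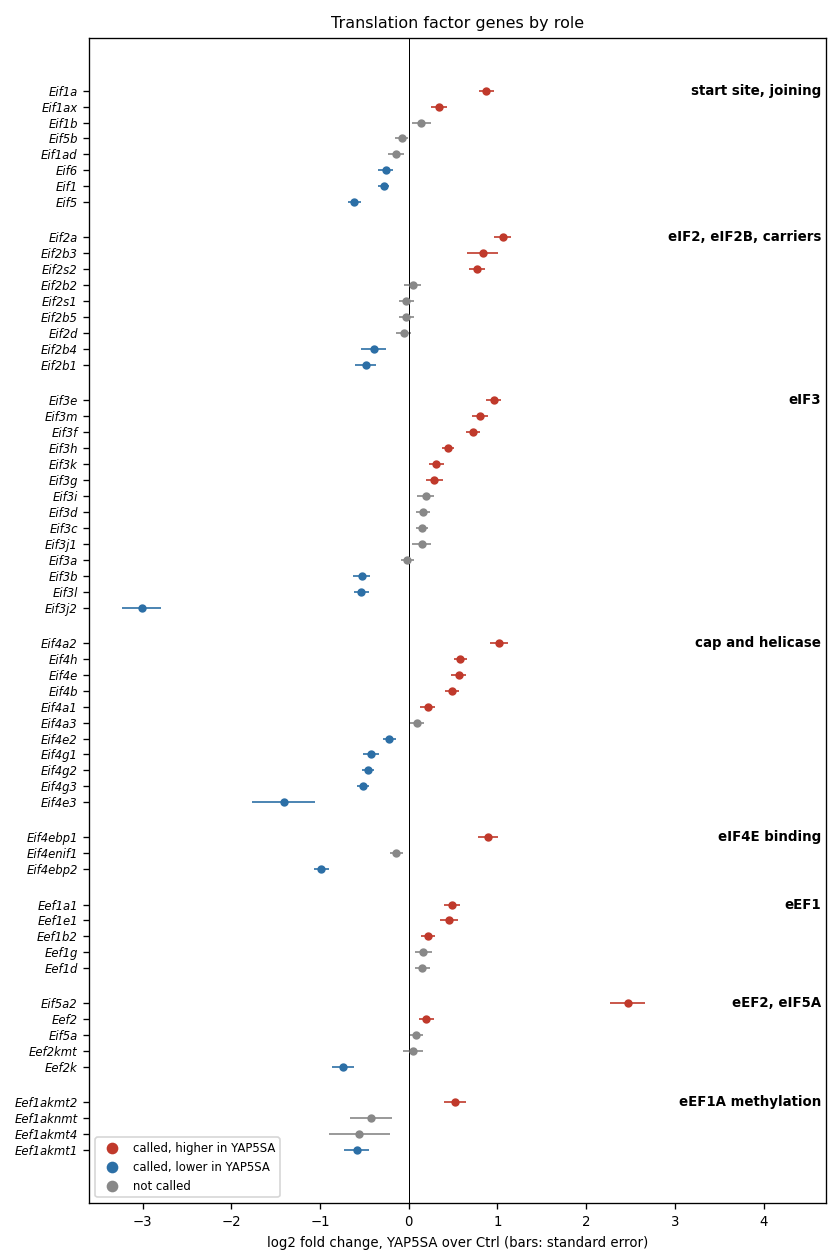
Log2 fold change, YAP5SA over Ctrl, of the 59 tested translation factor genes, grouped by role, with standard errors from edgeR; red and blue points are called at an adjusted p under 0.05. Higher and lower calls stand side by side in most roles. The genes grouped as eEF1, with Eef1e1 among them, have no lower call, and Eif5a2 (2.47) and Eif3j2 (-3.01) lie farthest out.

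**Figure D2:**
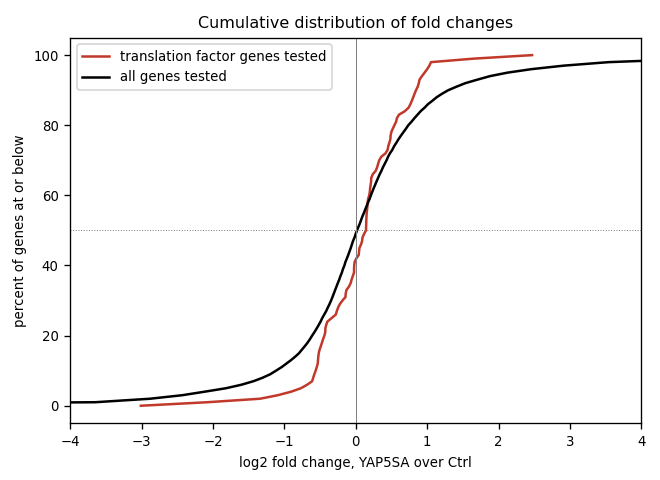
Cumulative distribution of log2 fold changes, YAP5SA over Ctrl, for the 59 tested members (red) and the 13812 genes tested (black). The red curve is steeper than the black one and crosses 50% at 0.14, against 0.02 for all genes.

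The DNA before the starts of these genes was read for short motifs, to show what members called in either direction have there. RefSeq promoter windows on GRCm38.p6, from 250 bases before to 50 bases after each start, were matched by symbol for 49 of the 83 members, with 63 starts. The E-box CACGTG, which reads the same on both strands and is the core site of MYC and related factors, was in 25.4% of the members' starts, against 9.69% of the starts of tested genes that are not members and 7.15% of all 32851 starts. It was in the windows of 14 of the 49 genes. By call, these were 7 of 18 genes called higher, 2 of 11 called lower and 5 of 17 not called. Among tested genes that are not members it was in 1175 of 10125 genes, which were not split by call. Of the members called higher with an E-box, Eef2, Eif3k and Eif4a1 lost their calls under some alternatives. Whether the E-box goes with the call was not tested. The core site of the TEAD factors through which YAP binds DNA, GGAATG on either strand, was in 9.52% of the members' starts, 12.4% of the starts of tested genes that are not members and 14.7% of all starts. A C followed by at least 4 pyrimidines within 5 bases of the start, the form of a terminal oligopyrimidine start, was in 19% of the members' starts, 19.9% of those of tested genes that are not members and 18.3% of all. Windows were not matched for base composition, and matches to the motifs were not masked for overlap. A match says only that the letters are there, and a miss of the pyrimidine start depends on where the start is annotated. The 60 bases around an E-box are shown, with CACGTG in capitals, for 4 members called higher and 2 called lower that are described below.
Eif5a2 (chr3:28781108-28781167, strand +): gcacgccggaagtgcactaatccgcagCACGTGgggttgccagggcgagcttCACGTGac
Eif4e (chr3:138527177-138527236, strand +): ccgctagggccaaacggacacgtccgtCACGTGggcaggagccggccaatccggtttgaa
Eif3f (chr7:108934320-108934379, strand +): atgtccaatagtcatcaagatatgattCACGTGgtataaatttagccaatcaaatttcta
Eif4a1 (chr11:69672580-69672639, strand -): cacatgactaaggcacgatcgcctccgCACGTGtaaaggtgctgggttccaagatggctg
Eif4g1 (chr16:20672646-20672705, strand +): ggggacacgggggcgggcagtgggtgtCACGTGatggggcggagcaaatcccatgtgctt
Eef2k (chr7:120842773-120842832, strand +): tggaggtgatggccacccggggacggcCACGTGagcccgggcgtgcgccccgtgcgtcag
The first base of the motif lies at position -142 of the start in Eif5a2, -64 in Eif4e, -68 in Eif3f, -189 in Eif4a1, -54 in Eif4g1 and -31 in Eef2k, and the Eif5a2 stretch holds it a second time.

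The cap-binding group split by subunit: genes of the eIF4F helicase (Eif4a1 by a small amount, with overlapping groups), its cofactors and the main cap-binding protein were higher in YAP5SA, and all genes of the eIF4G scaffold family were lower. Of its 11 tested members 5 were higher, 5 were lower and 1 was not called, with a median log2 fold change of 0.10. Thus 90.9% were called, against 64.5% of all genes. Eif4a2, a helicase gene, had 1294, 1451, 1191 and 1071 CPM in the YAP5SA libraries, against 606, 653, 681 and 531 CPM in the Ctrl libraries. All YAP5SA libraries lay well above all Ctrl libraries (2.03-fold; log2 fold change 1.02 ± 0.10, adjusted p = 9.79e-07; the ± of a log2 fold change is its SE throughout). Its paralogue Eif4a1 had 632, 709.6, 652 and 758 CPM in the YAP5SA libraries, against 663, 547, 549 and 614 CPM in the Ctrl libraries. Here Ctrl library 1 lay within the YAP5SA range, so the groups overlapped (log2 fold change 0.21 ± 0.09, adjusted p = 0.0415). The Eif4a1 call was lost without YAP5SA library 2 or 4 or without Ctrl library 2, 3 or 4, with adjusted p of 0.0686 to 0.156. About 22.4% of its 100-base stretches also occur in other genes, mainly in Eif4a-ps4, so its counts are uncertain. The helicase cofactors Eif4b (712 CPM in YAP5SA and 508 CPM in Ctrl; log2 fold change 0.49 ± 0.08, adjusted p = 0.000126) and Eif4h (378 CPM in YAP5SA and 252 CPM in Ctrl; log2 fold change 0.58 ± 0.07, adjusted p = 7.28e-06) were higher in YAP5SA. Eif4a3, which works in the exon junction complex rather than in cap binding, was not called (log2 fold change 0.10 ± 0.08, adjusted p = 0.303).

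Among cap-binding proteins, Eif4e, the cap-binding subunit of eIF4F, had 159, 162, 139 and 166 CPM in the YAP5SA libraries, against 116, 95.1, 102 and 111 CPM in the Ctrl libraries. The groups did not overlap (log2 fold change 0.56 ± 0.08, adjusted p = 3.78e-05). Eif4e2, which encodes a related cap-binding protein known from translational repression, had 68.7, 68.2, 66.2 and 71.3 CPM in the YAP5SA libraries, against 84.2, 73.8, 75.3 and 85.7 CPM in the Ctrl libraries. It lay lower in all YAP5SA libraries by a small margin (log2 fold change -0.22 ± 0.07, adjusted p = 0.0205), and the call was lost without YAP5SA library 3 (adjusted p = 0.0524) and with scaling by library size (adjusted p = 0.653) or upper quartile (adjusted p = 0.0663) or no filter (adjusted p = 0.0523). Eif4e3, another member of the family, was scarce, with 0.544, 0.572, 0.692 and 1.5 CPM in the YAP5SA libraries, against 2.7, 1.95, 1.71 and 2.57 CPM in the Ctrl libraries. All YAP5SA libraries lay below all Ctrl libraries, and YAP5SA library 4 stood apart from the other 3 (log2 fold change -1.41 ± 0.36, adjusted p = 0.00322). The scaffold gene Eif4g1 had 351, 314, 359 and 412 CPM in the YAP5SA libraries, against 481, 484, 436 and 532 CPM in the Ctrl libraries. Its YAP5SA libraries were all lower (log2 fold change -0.43 ± 0.09, adjusted p = 0.000815). Eif4g3, the other scaffold that binds eIF4E, had 86.1, 81.0, 85.6 and 82.7 CPM in the YAP5SA libraries, against 118, 123, 112 and 127 CPM in the Ctrl libraries. The groups were again apart (log2 fold change -0.52 ± 0.07, adjusted p = 1.47e-05). Eif4g2, which lacks the eIF4E-binding site and serves alternative forms of initiation, averaged 817 ± 39.3 CPM in YAP5SA and 1124 ± 61.7 CPM in Ctrl and was lower as well (log2 fold change -0.46 ± 0.07, adjusted p = 5.99e-05).

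The inhibitors that keep eIF4E from eIF4G moved in opposite directions. Eif4ebp1 had 76.5, 74.3, 69.0 and 71.1 CPM in the YAP5SA libraries, against 28.9, 39.9, 43.2 and 44.6 CPM in the Ctrl libraries. It was 1.86-fold the Ctrl level, with no overlap (log2 fold change 0.89 ± 0.11, adjusted p = 1.13e-05). Eif4ebp2 had 100.4, 85.5, 104 and 91.2 CPM in the YAP5SA libraries, against 192, 185, 173 and 204 CPM in the Ctrl libraries. Every YAP5SA library was lower than every Ctrl library, at 0.51-fold the Ctrl level (log2 fold change -0.98 ± 0.08, adjusted p = 1.44e-07). Eif4enif1, the shuttling eIF4E partner that takes it to the nucleus, was not called (log2 fold change -0.14 ± 0.08, adjusted p = 0.118), but it was called lower without Ctrl library 1 (adjusted p = 0.0465) and with scaling on the reference genes (adjusted p = 0.0182). Eif4ebp3, with 6 counts over the YAP5SA libraries and 16 over the Ctrl libraries, was not tested.

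**Figure D3:**
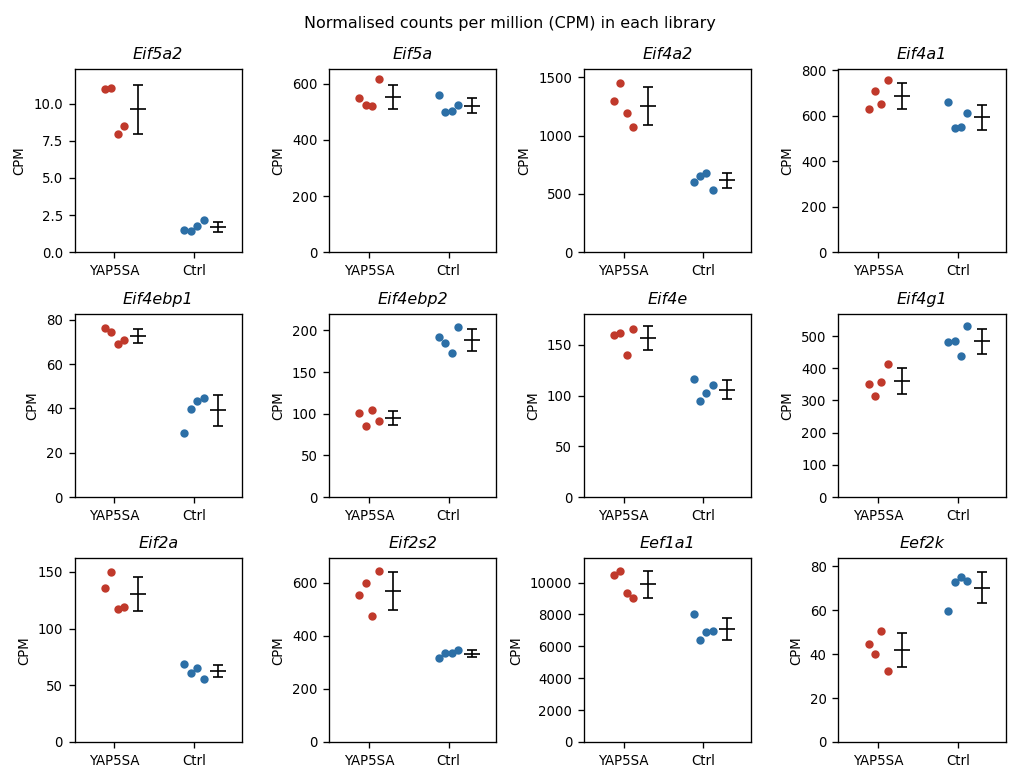
CPM, on linear axes from 0, of 12 translation factor genes in each library, with YAP5SA (red) left of Ctrl (blue) and the mean and SD of 4 libraries beside the points. Eif5a2, Eif4a2, Eif4ebp1, Eif4e, Eif2a, Eif2s2 and Eef1a1 lie higher and Eif4ebp2, Eif4g1 and Eef2k lower in every YAP5SA library, whereas the groups overlap for Eif5a and Eif4a1.

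In eIF3, the scaffold on the small subunit, the genes of the f, h and m subunits and of subunit e were higher in YAP5SA while those of subunits b and l were lower. Of the 14 tested genes 6 were higher, 3 were lower and 5 were not called, and the median log2 fold change was 0.18. The share called, 64.3%, was near the 64.5% of all genes. Eif3e had 416, 467, 371 and 411 CPM in the YAP5SA libraries, against 238, 192, 222 and 206 CPM in the Ctrl libraries. All YAP5SA libraries were higher, on average 1.94-fold (log2 fold change 0.96 ± 0.09, adjusted p = 4.24e-07). Eif3m had 263, 296, 237 and 253 CPM in the YAP5SA libraries, against 164, 133, 154 and 150.2 CPM in the Ctrl libraries. The groups lay far apart (log2 fold change 0.80 ± 0.09, adjusted p = 2.14e-06). Eif3f, whose promoter stretch is shown above, had 220.3, 193, 224 and 191 CPM in the YAP5SA libraries, against 134, 118, 118 and 130.02 CPM in the Ctrl libraries. Again no libraries overlapped (log2 fold change 0.73 ± 0.08, adjusted p = 2.46e-06). Eif3h rose by a smaller amount (log2 fold change 0.44 ± 0.07, adjusted p = 8.13e-05), as did Eif3k (log2 fold change 0.31 ± 0.08, adjusted p = 0.00514) and Eif3g (log2 fold change 0.29 ± 0.09, adjusted p = 0.0155). The Eif3g call was lost without Ctrl library 2 (adjusted p = 0.071) or Ctrl library 3 (adjusted p = 0.0575). For Eif3h, 11.8% of the 100-base stretches are shared with another gene.

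Eif3a, the largest scaffold subunit, had 517, 535, 501 and 556 CPM in the YAP5SA libraries, against 581, 497, 507 and 547 CPM in the Ctrl libraries. The groups overlapped throughout (log2 fold change -0.01 ± 0.07, adjusted p = 0.871). The other core subunit genes Eif3c (log2 fold change 0.15 ± 0.07, adjusted p = 0.0675), Eif3i (log2 fold change 0.19 ± 0.10, adjusted p = 0.0949) and Eif3d, which can itself bind caps (log2 fold change 0.17 ± 0.08, adjusted p = 0.0806), were not called. Without YAP5SA library 3, Eif3c (adjusted p = 0.0375) and Eif3i (adjusted p = 0.0373) were called higher. With all libraries, these and Eif3d were called higher with upper quartile scaling (adjusted p = 0.0167 for Eif3c, adjusted p = 0.0367 for Eif3i and adjusted p = 0.0267 for Eif3d) and with library size scaling. Of these, 39.3% of the 100-base stretches of Eif3d are shared with other genes. Eif3b had 161, 144, 160.3 and 192 CPM in the YAP5SA libraries, against 261, 213, 219.9 and 254 CPM in the Ctrl libraries. It was lower in every YAP5SA library (log2 fold change -0.53 ± 0.10, adjusted p = 0.000264). Eif3l had 80.3, 78.9, 81.4 and 93.7 CPM in the YAP5SA libraries, against 132, 112, 112 and 129 CPM in the Ctrl libraries. Its groups did not overlap either (log2 fold change -0.53 ± 0.08, adjusted p = 7.68e-05).

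The loosely held j subunit has a pair of genes in the mouse, Eif3j1 and Eif3j2. Eif3j1 had 66.5, 66.9, 59.0 and 77.4 CPM in the YAP5SA libraries, against 66.7, 53.9, 55.2 and 68.5 CPM in the Ctrl libraries, with overlapping groups (log2 fold change 0.15 ± 0.10, adjusted p = 0.232). Eif3j2 had 1.09, 1.61, 0.905 and 1.96 CPM in the YAP5SA libraries, against 11.5, 10.9, 9.75 and 13.1 CPM in the Ctrl libraries. This was the lowest fold change of all members (log2 fold change -3.01 ± 0.22, adjusted p = 4.45e-08), at 0.12-fold the Ctrl level. Since 84% of the 100-base stretches of Eif3j2 also occur in other genes, chiefly Eif3j1, and 47.6% of those of Eif3j1 are shared, the counts of this pair are uncertain.

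**Figure D4:**
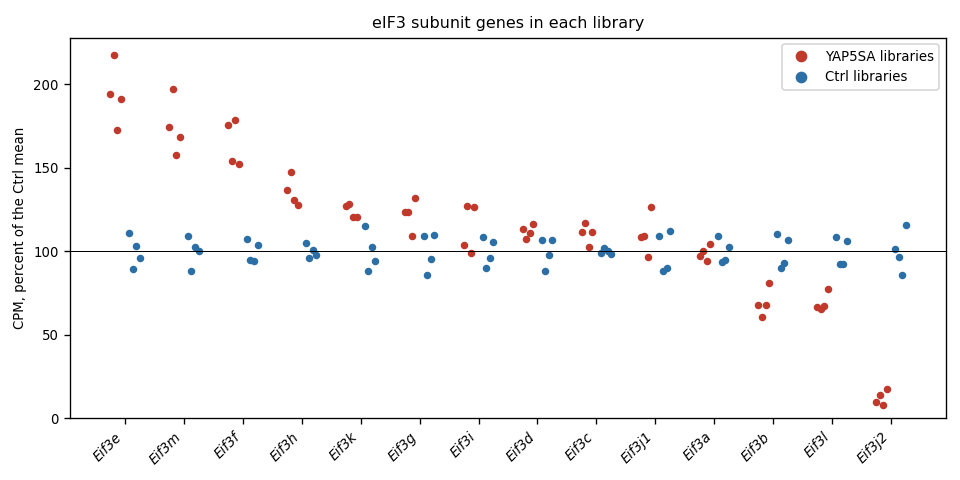
CPM of the 14 tested eIF3 subunit genes in each library, as percent of the Ctrl mean of that gene, ordered by fold change, with YAP5SA (red) left of Ctrl (blue). The YAP5SA points of Eif3e, Eif3m and Eif3f lie at 152% to 218%, those of Eif3b and Eif3l at 60.8% to 80.9%, and those of Eif3j2 at 7.99% to 17.3%.

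For the delivery of the initiator tRNA, the gene of the beta subunit of eIF2 was higher and that of the alpha subunit was not called. Of the 9 tested genes of eIF2, eIF2B and alternative carriers, 3 were higher, 2 were lower and 4 were not called, with a median of -0.02. Calls thus covered 55.6% of them, against 64.5% of all genes. Eif2s1, the alpha subunit that stress kinases phosphorylate, had 175, 196, 173 and 201 CPM in the YAP5SA libraries, against 203, 164, 183 and 208 CPM in the Ctrl libraries. The ranges overlapped nearly completely (log2 fold change -0.02 ± 0.09, adjusted p = 0.818). Eif2s2, the beta subunit, had 554, 601, 477 and 643 CPM in the YAP5SA libraries, against 316, 337, 336 and 347 CPM in the Ctrl libraries. Every YAP5SA library exceeded every Ctrl library, by 1.70-fold on average (log2 fold change 0.77 ± 0.09, adjusted p = 3.88e-06). Eif2a, a separate protein that can carry initiator tRNA to selected mRNAs, had 136, 149.5, 117 and 119 CPM in the YAP5SA libraries, against 68.9, 60.5, 65.2 and 55.8 CPM in the Ctrl libraries. It was 2.08-fold higher with no overlap (log2 fold change 1.06 ± 0.10, adjusted p = 3.13e-07), while Eif2d, another alternative carrier, was not called (log2 fold change -0.06 ± 0.08, adjusted p = 0.568). The gamma subunit is encoded on the sex chromosomes. Eif2s3x averaged 178 ± 15.3 CPM in YAP5SA and 157 ± 18.6 CPM in Ctrl (log2 fold change 0.18 ± 0.09, adjusted p = 0.102; called higher without YAP5SA library 3 or Ctrl library 1), and Eif2s3y averaged 161 ± 14.6 CPM in YAP5SA and was listed at 0 in Ctrl. Their sum was 339 ± 28.5 CPM in YAP5SA and 157 ± 18.6 CPM in Ctrl, and Eif2s3y made up 47.4% of it in YAP5SA, and this sum cannot be told apart from the sex-linked difference between the groups.

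The exchange factor eIF2B had changes in both directions. Eif2b3, its gamma subunit, had 20.4, 21.6, 16.5 and 19.8 CPM in the YAP5SA libraries, against 15.8, 10.2, 8.37 and 9.6 CPM in the Ctrl libraries. All YAP5SA libraries were higher than all Ctrl libraries (log2 fold change 0.83 ± 0.17, adjusted p = 0.000785). Eif2b1, its alpha subunit, was lower (27.8 CPM in YAP5SA and 39.0 CPM in Ctrl; log2 fold change -0.49 ± 0.11, adjusted p = 0.00201), and so was the delta subunit gene Eif2b4 (11.3 CPM in YAP5SA and 14.9 CPM in Ctrl; log2 fold change -0.40 ± 0.14, adjusted p = 0.0228). The Eif2b4 call was lost without YAP5SA library 1 (adjusted p = 0.0766) or 2 (adjusted p = 0.0683), and with scaling by library size. The catalytic subunit Eif2b5 had 70.2, 67.8, 60.8 and 70.4 CPM in the YAP5SA libraries, against 76.2, 64.9, 65.4 and 67.7 CPM in the Ctrl libraries. These overlapped (log2 fold change -0.03 ± 0.08, adjusted p = 0.795), as did the groups for Eif2b2 (log2 fold change 0.04 ± 0.10, adjusted p = 0.712).

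Of the 8 tested genes for start-site selection and subunit joining, 2 were higher and 3 were lower in YAP5SA, and 3 were not called (median -0.11). This share called, 62.5%, was near the 64.5% of all genes. Eif1a, for the scanning factor eIF1A, had 468, 502, 419 and 536 CPM in the YAP5SA libraries, against 273, 244, 277 and 256 CPM in the Ctrl libraries. The YAP5SA libraries were all far above the Ctrl libraries (log2 fold change 0.88 ± 0.08, adjusted p = 6.34e-07). Its X-linked paralogue Eif1ax had 133, 137, 120.2 and 149.8 CPM in the YAP5SA libraries, against 119, 96.5, 97.6 and 115 CPM in the Ctrl libraries. The gap between the groups was narrow (log2 fold change 0.34 ± 0.09, adjusted p = 0.005). Eif5, which makes eIF2 hydrolyse its GTP at the start codon, had 443, 425, 429 and 463 CPM in the YAP5SA libraries, against 663, 663, 625 and 742 CPM in the Ctrl libraries. Every YAP5SA library was well below every Ctrl library (log2 fold change -0.61 ± 0.07, adjusted p = 4.97e-06). Eif1, which keeps scanning ribosomes from wrong start codons, had 464, 458, 467 and 478 CPM in the YAP5SA libraries, against 533, 578, 581 and 579 CPM in the Ctrl libraries. It too was lower without overlap (log2 fold change -0.28 ± 0.06, adjusted p = 0.00158), although 19.2% of its 100-base stretches are shared with other genes and the call was lost with scaling by library size (adjusted p = 0.144). Its paralogue Eif1b had 17.5, 18.7, 18.3 and 17.6 CPM in the YAP5SA libraries, against 15.7, 18.8, 14.3 and 16.6 CPM in the Ctrl libraries, with overlapping groups (log2 fold change 0.14 ± 0.11, adjusted p = 0.263). Eif6, which keeps free large subunits from joining, had 62.6, 61.4, 64.1 and 75.0 CPM in the YAP5SA libraries, against 75.5, 74.4, 77.1 and 87.8 CPM in the Ctrl libraries. YAP5SA library 4 reached into the Ctrl range (log2 fold change -0.26 ± 0.09, adjusted p = 0.0171), and the call was lost without YAP5SA library 1 (adjusted p = 0.0543) or 2 (adjusted p = 0.0555) and with scaling by library size. Eif5b, the joining GTPase, was not called (log2 fold change -0.08 ± 0.07, adjusted p = 0.366), and neither was Eif1ad (log2 fold change -0.14 ± 0.09, adjusted p = 0.165).

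In elongation, the genes grouped with the eEF1 complex, among them Eef1e1 of the tRNA synthetase complex, showed higher calls and no lower ones. Of the 5 tested, 3 were higher and 2 were not called (60% called, against 64.5% of all genes), with a median of 0.22. Apart from Eef1e1, Eef1a1 and Eef1b2 were higher and Eef1d and Eef1g were not called. Eef1a1 had 10449, 10747, 9340.1 and 9012 CPM in the YAP5SA libraries, against 8030.1, 6402, 6917 and 6945 CPM in the Ctrl libraries. All YAP5SA libraries were higher, at 1.40-fold the Ctrl level (log2 fold change 0.48 ± 0.09, adjusted p = 0.000309). About 26.7% of its 100-base stretches occur in 10 other genes, so the count is uncertain. Its muscle and nerve paralogue Eef1a2 had 3 counts over the YAP5SA libraries and 5 over the Ctrl libraries and was not tested. Eef1e1, a protein of the tRNA synthetase complex, was higher (62.6 CPM in YAP5SA and 45.7 CPM in Ctrl; log2 fold change 0.45 ± 0.10, adjusted p = 0.00169). The nucleotide exchange subunit Eef1b2 was called higher by a small amount (log2 fold change 0.22 ± 0.08, adjusted p = 0.0346), with Ctrl library 1 (465 CPM) inside the YAP5SA range of 455 to 492 CPM. That call was lost without YAP5SA library 1, 2 or 4 or without Ctrl library 2, 3 or 4, with adjusted p of 0.0501 to 0.153. Eef1d (log2 fold change 0.15 ± 0.09, adjusted p = 0.136) and Eef1g (log2 fold change 0.16 ± 0.09, adjusted p = 0.148), the other exchange subunits, were not called. They were called higher without Ctrl library 1 (adjusted p = 0.0374 for Eef1d and adjusted p = 0.0158 for Eef1g) and with library size scaling (adjusted p = 0.00707 for Eef1d and adjusted p = 0.012 for Eef1g). About 49.4% of the 100-base stretches of Eef1g also occur in 4 other genes, so its counts are uncertain. Among enzymes that methylate eEF1A, Eef1akmt1 had 7.98, 9.35, 8.57 and 8.66 CPM in the YAP5SA libraries, against 15.7, 11.3, 13.5 and 11.5 CPM in the Ctrl libraries. It was lower in each YAP5SA library (log2 fold change -0.59 ± 0.14, adjusted p = 0.00176), while Eef1akmt2 was higher (log2 fold change 0.52 ± 0.12, adjusted p = 0.00201) and Eef1akmt4 (log2 fold change -0.56 ± 0.35, adjusted p = 0.174) and Eef1aknmt (log2 fold change -0.43 ± 0.24, adjusted p = 0.132) were not called with all libraries. Both Eef1akmt4 without Ctrl library 2 (adjusted p = 0.0195) and Eef1aknmt without Ctrl library 3 (adjusted p = 0.0213) were called lower.

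For translocation, the gene of eEF2 was called higher by a small amount and that of its kinase lower, and Eif5a2 had the highest fold change of all members. Eef2 had 2140.1, 2067, 1984 and 2014 CPM in the YAP5SA libraries, against 2042, 1576, 1759 and 1765 CPM in the Ctrl libraries. Ctrl library 1 lay within the YAP5SA range (log2 fold change 0.20 ± 0.08, adjusted p = 0.0463), and leaving out any library other than Ctrl library 1 ended the call, with adjusted p of 0.0592 to 0.187, as did RLE scaling (adjusted p = 0.0535). Eef2k, the kinase that inhibits eEF2, had 44.9, 40.2, 50.6 and 32.2 CPM in the YAP5SA libraries, against 59.6, 72.8, 75.1 and 73.4 CPM in the Ctrl libraries. It was lower in all YAP5SA libraries, at 0.60-fold the Ctrl level (log2 fold change -0.74 ± 0.12, adjusted p = 0.000116). Eef2kmt, which methylates eEF2, was not called (log2 fold change 0.05 ± 0.11, adjusted p = 0.733). Eif5a had 549, 524, 521 and 615 CPM in the YAP5SA libraries, against 559, 500.1, 502 and 524 CPM in the Ctrl libraries. These overlapped (log2 fold change 0.08 ± 0.08, adjusted p = 0.341). Its paralogue Eif5a2, far less abundant and known from tumours, had 11.0, 11.1, 7.93 and 8.47 CPM in the YAP5SA libraries, against 1.52, 1.42, 1.79 and 2.18 CPM in the Ctrl libraries. The fitted level in YAP5SA was 5.54-fold the Ctrl level, with a wide gap between the groups (log2 fold change 2.47 ± 0.20, adjusted p = 1.08e-07).

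Where a factor is encoded by a pair of paralogues, the balance within the pair was compared as the share of the pair's counts held by the gene with fewer counts, which does not depend on scaling between libraries. Exact permutation tests over the 70 divisions of the libraries, two-sided, can give no p below 0.0286, and were adjusted over 7 pairs. The share of Eif4a1 in Eif4a1 and Eif4a2 was 32.8%, 32.9%, 35.4% and 41.4% in the YAP5SA libraries, against 52.2%, 45.6%, 44.7% and 53.6% in the Ctrl libraries. All YAP5SA libraries were lower (exact permutation p = 0.0286, adjusted p = 0.0333), but without Ctrl library 1 or 4 the test did not pass (exact permutation, adjusted p = 0.0667). The share of Eif4e2 in Eif4e and Eif4e2 was 30.5% ± 1.13 in YAP5SA and 43.0% ± 0.832 in Ctrl (SD, n = 4 each), and that of Eif1ax in Eif1a and Eif1ax 21.9% ± 0.365 in YAP5SA and 28.9% ± 2.21 in Ctrl. The share of Eif5a2 in Eif5a and Eif5a2 was 1.72% ± 0.346 in YAP5SA and 0.331% ± 0.0666 in Ctrl, so that Eif5a remained nearly all of the pair. Eif1b held 3.72% ± 0.162 of its pair with Eif1 in YAP5SA and 2.80% ± 0.309 in Ctrl. Eif3j2 held 1.99% ± 0.494 of its pair with Eif3j1 in YAP5SA and 15.7% ± 0.999 in Ctrl, with the shared sequence noted above. In each of these pairs the groups did not overlap, with the same exact permutation p = 0.0286 and adjusted p = 0.0333. Eif4g3 held 19.1% ± 1.64 of its pair with Eif4g1 in YAP5SA and 19.9% ± 0.544 in Ctrl, a difference of -0.871 percentage points that did not pass (exact permutation p = 0.486). Both scaffold genes were lower, and their ratio was not shown to differ.

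**Figure D5:**
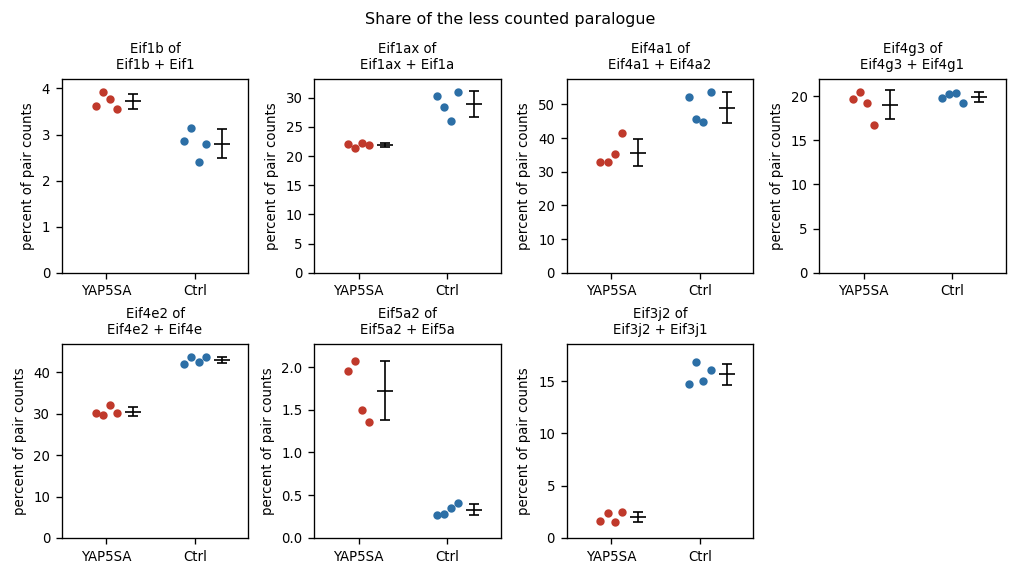
Share of each pair's counts held by its less counted paralogue, in percent, in each library, with YAP5SA (red) left of Ctrl (blue) and the mean and SD of 4 libraries beside the points. The groups are apart in 6 of the 7 pairs, among them Eif4a1 (35.6% in YAP5SA and 49.0% in Ctrl) and Eif5a2 (1.72% in YAP5SA and 0.331% in Ctrl), and overlap for Eif4g3.

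The abundance order of the members per length of transcript was headed by elongation factors. In CPM per kilobase of exon (GENCODE M21 models) Eef1a1 stood at 5511 ± 469 in YAP5SA and 3943 ± 382 in Ctrl, Eef2 at 664 ± 22.1 in YAP5SA and 578 ± 62.2 in Ctrl and Eif4a1 at 388 ± 32.2 in YAP5SA and 334 ± 31.4 in Ctrl. Eif4a2 stood at 391.5 ± 50.3 in YAP5SA and 193 ± 20.6 in Ctrl, level with Eif4a1 in YAP5SA and below it in Ctrl. Eif1 stood at 353 ± 6.29 in YAP5SA and 429 ± 17.6 in Ctrl, below both Eif4a genes in YAP5SA and above both Eif4a genes in Ctrl. Of the eIF3 subunits, Eif3e, at 277 ± 26.2 in YAP5SA and 143 ± 13.2 in Ctrl, was the highest in YAP5SA, and Eif3h in Ctrl (181 CPM per kilobase). Eif5a2, at 1.91 ± 0.327 in YAP5SA and 0.344 ± 0.0672 in Ctrl, was near the low end, beside Eif5a at 232 ± 18.4 in YAP5SA and 219 ± 11.5 in Ctrl. The fold change had little relation to exon length over the members (Spearman rho -0.19 across 58 genes that share the same 8 libraries). Within groups, single libraries stood at an end for many members: YAP5SA library 3 was the lowest of its group for 28 of 59 members and YAP5SA library 4 the highest for 32, and Ctrl library 2 was the lowest for 37 and Ctrl library 1 the highest for 30.

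Members whose mRNAs are known to begin with a 5′ terminal oligopyrimidine (TOP) tract, the element by which mTORC1 and Larp1 control translation, were called higher more often than in the other direction. Of 10 tested genes on this list 7 were higher, 0 lower and 3 not called by edgeR, with a median log2 fold change of 0.33, where 33.1% of all genes were called higher and 31.3% lower. Of the 6 genes of the list with a RefSeq window, 2 held a pyrimidine start as searched above. That search depends on where the start is annotated, so a miss does not show that a gene lacks the tract. At an unadjusted p under 0.05 none of the 10 was lower in that test, and DESeq2 and limma-voom also called 0 of them lower. The other 49 tested members had 16 higher, 16 lower and 17 not called, with a median of 0.04. The count of higher TOP genes was 5 when libraries were scaled on 10 reference genes, 7 of them called themselves, and 9 when scaled by library size. The difference between the lists was not tested, and the list includes Eef1a1, Eef1b2 and Eef2, whose sequence sharing or lost calls are given above.

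The 24 members that were not tested had few counts. Of these, 17 have symbols made of Eif1ad and a number, and they held between 0 and 37 counts each over all 8 libraries. Eif1ad15 had 22 counts over the YAP5SA libraries and 15 over the Ctrl libraries, and Eif1ad7 had 22 over the YAP5SA libraries and 1 over the Ctrl libraries. Eif4a3l1 had 18 counts over the YAP5SA libraries and 0 over the Ctrl libraries, and Eif4a3l2 had 14 in YAP5SA and 1 in Ctrl. Without a filter on low counts Eif1ad7, Eif1ad3 and Eif4a3l1 were called higher. Eef1akmt3 had 23 counts in YAP5SA and 31 in Ctrl.

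Among genes that regulate the factors, those around eIF2 phosphorylation were mostly lower in YAP5SA: 4 of 6 tested genes (66.7%) were lower, 1 was higher and 1 was not called. Over all genes tested, 31.3% were called lower and 33.1% higher. Ppp1r15b, the constant partner of the eIF2 phosphatase, was lower (96.9 CPM in YAP5SA and 206 CPM in Ctrl; log2 fold change -1.09 ± 0.08, adjusted p = 3.7e-08). Its stress-induced relative Ppp1r15a was higher (36.6 CPM in YAP5SA and 16.3 CPM in Ctrl; log2 fold change 1.17 ± 0.11, adjusted p = 6.36e-07). The kinase genes Eif2ak1 (log2 fold change -0.90 ± 0.07, adjusted p = 8.2e-08), which senses heme, and Eif2ak3 (log2 fold change -0.54 ± 0.10, adjusted p = 0.00025), which senses the endoplasmic reticulum, were lower. Of 16 tested genes listed as ATF4 and its targets, 9 (56.2%) were higher, 2 (12.5%) were lower and 5 were not called. Their median was 0.48. The serine synthesis genes Psat1 (log2 fold change 1.37 ± 0.11, adjusted p = 9.07e-08) and Phgdh (log2 fold change 1.12 ± 0.12, adjusted p = 2.57e-06), the mTORC1 inhibitor Ddit4 (log2 fold change 0.75 ± 0.08, adjusted p = 1.46e-06) and the stress gene Nupr1 (log2 fold change 0.87 ± 0.11, adjusted p = 1.17e-05) were higher. Atf4 itself, chosen here after its value was seen, was lower (log2 fold change -0.45 ± 0.10, adjusted p = 0.00101). So was Slc7a11, chosen in the same way, though its groups overlapped (log2 fold change -1.19 ± 0.31, adjusted p = 0.00376). The genes of this list that were not called were Atf5, Chac1, Asns, Sesn2 and Cth.

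Genes listed with mTORC1 and its translation kinases were mostly lower, 9 of 13 (69.2%), with 2 (15.4%) higher and 2 not called (median -0.28). The list holds inhibitors as well as parts of the pathway, and both were among the lower genes, so the count gives no direction for the pathway. Among all genes tested, 31.3% were called lower and 33.1% higher. Deptor, an inhibitor of mTOR (13.7 CPM in YAP5SA and 81.4 CPM in Ctrl; log2 fold change -2.57 ± 0.12, adjusted p = 3.1e-10), Pdcd4, an inhibitor of eIF4A (79.1 CPM in YAP5SA and 252 CPM in Ctrl; log2 fold change -1.67 ± 0.09, adjusted p = 1.24e-09), and Tsc2, which restrains Rheb (log2 fold change -0.69 ± 0.11, adjusted p = 6.94e-05), were lower. Mknk2, a kinase of eIF4E, was higher (log2 fold change 0.69 ± 0.08, adjusted p = 2.24e-06). Chosen here after their values were seen, Mtor itself (log2 fold change -0.26 ± 0.09, adjusted p = 0.0149), Mlst8 (log2 fold change -0.72 ± 0.14, adjusted p = 0.000459), Rps6kb1 (log2 fold change -0.27 ± 0.09, adjusted p = 0.0121) and Rps6kb2 (log2 fold change -0.46 ± 0.15, adjusted p = 0.017) were lower too. The remaining genes called lower, also chosen after their values were seen, were Tsc1 (log2 fold change -0.45 ± 0.10, adjusted p = 0.00168) and Mknk1 (log2 fold change -0.28 ± 0.12, adjusted p = 0.0483). Rheb was the other gene called higher (log2 fold change 0.38 ± 0.09, adjusted p = 0.00289). With scaling by library size 7 of the 13 were called. Of the 8 poly(A)-binding proteins and partners 3 were higher, among them Paip2 (log2 fold change 0.76 ± 0.08, adjusted p = 8.51e-07) and Paip2b (log2 fold change 0.81 ± 0.11, adjusted p = 2.25e-05), which inhibit the poly(A)-binding protein, and Paip1 (log2 fold change 0.40 ± 0.07, adjusted p = 0.000203), and 2 were lower, among them Larp4b (log2 fold change -0.79 ± 0.08, adjusted p = 6.7e-07). The other was Larp1, chosen here after its value was seen (87.4 CPM in YAP5SA and 135 CPM in Ctrl; log2 fold change -0.63 ± 0.11, adjusted p = 0.000238).

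Other steps of protein synthesis showed calls in both directions. Over all genes tested, 64.5% were called, 33.1% higher and 31.3% lower. The share called was 77.8% in the termination list, 54.5% in the synthetase list and 100% in the selenocysteine list. It was 33.3% in the hypusine and diphthamide list and 22.2% in the mitochondrial list. Of 9 genes for termination, rescue and recycling 5 were higher, 2 were lower and 2 were not called: Mcts1 (log2 fold change 0.67 ± 0.08, adjusted p = 3.44e-06) and the recycling ATPase Abce1 (log2 fold change 0.49 ± 0.09, adjusted p = 0.000459) were higher, with the release factor GTPase Gspt2 (log2 fold change 0.78 ± 0.17, adjusted p = 0.00111), and Denr, the partner of Mcts1, was lower (log2 fold change -0.29 ± 0.08, adjusted p = 0.00547). Of 22 tested genes of cytosolic tRNA synthetases and their scaffold 7 were higher, 5 were lower and 10 were not called. Wars, for tryptophan, was lower (269 CPM in YAP5SA and 831 CPM in Ctrl; log2 fold change -1.63 ± 0.08, adjusted p = 9.26e-10), whereas Rars, for arginine (log2 fold change 0.86 ± 0.09, adjusted p = 2.04e-06), Dars, for aspartate (log2 fold change 0.74 ± 0.09, adjusted p = 7.52e-06), and the scaffold gene Aimp1 (log2 fold change 0.93 ± 0.09, adjusted p = 4.01e-07) were higher. All 6 selenocysteine incorporation genes were called, 5 lower and 1 higher. Sephs2 (log2 fold change -1.32 ± 0.10, adjusted p = 7.88e-08), Sepsecs (log2 fold change -1.005 ± 0.10, adjusted p = 6.94e-07) and Secisbp2 (log2 fold change -0.48 ± 0.11, adjusted p = 0.00113) were lower, and Pstk, which acts in the same synthesis, was higher (log2 fold change 0.91 ± 0.11, adjusted p = 5.95e-06). Of 9 genes that make hypusine on eIF5A or diphthamide on eEF2, 1 was higher, 2 were lower and 6 were not called, with Dph3 (log2 fold change -0.33 ± 0.10, adjusted p = 0.00846) and Dph2 (log2 fold change -0.58 ± 0.17, adjusted p = 0.00949) the lower ones and Dph5 (log2 fold change 0.40 ± 0.14, adjusted p = 0.0182) the higher. Mitochondrial translation factors had the fewest calls of these lists, 2 of 9, both lower: Tufm (log2 fold change -0.32 ± 0.09, adjusted p = 0.00854) and Gfm2 (log2 fold change -0.32 ± 0.11, adjusted p = 0.0247). Without Ctrl library 3, 1 of the 9 was called.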

How the data were processed

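Per the labels' protocols, total RNA of 8 organoid cultures was sequenced with paired ends. The deposited values are raw counts per gene row and library, with no normalization by the authors. The tools cutadapt, HISAT2 2.0.1 and HTSeq 0.6.1, and the build mm9 are named by the submitters' processing notes, without their order. Annotation, filters and strand setting were not given in the sources used here, so counts of overlapping and antisense genes are uncertain. Samples were grouped by title, and 0 per-sample columns were left unused.

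Counts were analysed in R 4.3.3 with edgeR 4.0.16: filterByExpr (minimum count 10, minimum total 15), TMM scaling, the quasi-likelihood F test without covariates, two-sided, and Benjamini-Hochberg adjustment over the 13812 genes tested (threshold 0.05). Standard errors are the log2 fold change over the square root of F. CPM uses TMM-scaled totals, and a floor of 3 counts corresponds to 0.116 to 0.173 CPM, counting error only. The fit was also run on simulated counts with few changed genes, balanced in direction, and the same spread for every gene. These settings differ from the data, so that run says little about scaling or calls here. Paralogue shares used exact permutation tests written in Python 3.11.15, and Spearman's rho came from scipy 1.17.1. Replicates of a group differed beyond sampling noise (chi-square per degree of freedom 4.94 to 38.3). Same-numbered libraries deviated with correlations of 0.0611 to 0.394, not all above 0.1, so the numbers were not taken to pair them.

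The members and lists were chosen with earlier results of these data known. The neural marker list is not reported here. The rule for named genes took 12 core factors, the 10 called members with the highest and the 8 with the lowest fold change, the paralogue pairs, and up to 4 genes with the smallest p of each other list; promoters are shown for 6 members. Promoters came from RefSeq on GRCm38.p6; exon lengths and shared 100-base stretches came from GENCODE M21, in which 63 members matched by symbol. Coordinates refer to GRCm38.p6, not to the mm9 of the counts. Alternatives were DESeq2 1.42.0, limma-voom (limma 3.58.1), RLE, upper quartile, library size and reference gene scaling, no filter, at least 1 CPM in 4 libraries, a replicate block, leaving out genes above 1% of a library, a minimum fold of 1.2 and leaving out each library.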

Additional observations from a re-analysis of the deposited data

Results flagged for a closer look

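In 6 of 118 groups of 4 values, the library with the highest or lowest CPM stood apart from the other 3 by Dixon's criterion, which chance flags in about 1 in 20 groups. Eif4e3 had 1.503 CPM in YAP5SA library 4 and 0.544 to 0.692 CPM in the other YAP5SA libraries. Eif3l had 93.7 CPM in YAP5SA library 4 and 78.9 to 81.4 CPM in the others. Eef1g had 386 CPM in YAP5SA library 1 and 345 to 351 CPM in the others. Eef2k had 59.6 CPM in Ctrl library 1 and 72.8 to 75.1 CPM in the other Ctrl libraries. Eif1 had 533 CPM in Ctrl library 1 and 579 to 581 CPM in the others. Eif2b2 had 43.9 CPM in Ctrl library 4 and 39.8 to 39.9 CPM in the others. For Eif4e3, Eif3l, Eef2k and Eif1 the library that stood apart was the one nearest to the opposite group, and the groups did not overlap.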

How the results depend on the processing

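Of the 39 called members, 29 (17 higher, 12 lower) kept direction and call under every alternative that tested them, with Eef1a1 untested when genes above 1% of a library were left out. The other 10 were Eef1b2, Eef2, Eif1, Eif1ax, Eif2b4, Eif3g, Eif3k, Eif4a1, Eif4e2 and Eif6, all lost at a minimum fold of 1.2, where 29 members were called. Other alternatives called 34 (without YAP5SA library 2) to 44 members (library size). Reference gene scaling called 36, with 18 higher and 18 lower, but 7 of its 10 genes were themselves called in the main fit. The replicate block called 39 members, all shared with the fit without it; 4 libraries correlated best with the library of their own number. The members' median was 0.20 with upper quartile, 0.32 with library size and 0.0431 with reference gene scaling, and 0.0643 to 0.132 when single libraries were left out. The median over all genes was 0.0064 with DESeq2, 0.019 with limma-voom, 0.0054 with RLE, 0.070 with upper quartile, 0.19 with library size, -0.080 with reference gene scaling, 0.015 without a filter, 0.010 with the 1 CPM filter, 0.010 without genes above 1% of a library, and -0.00378 to 0.0153 without single libraries. Calls of the eIF2 gamma genes were 2 with upper quartile and library size scaling and 1 to 2 without single libraries, and those of the mitochondrial factors 1 to 3. mTORC1 genes had 7 calls with library size. At a minimum fold of 1.2, calls were 6 for mTORC1, 4 for termination, 7 for tRNA synthetases, 1 for hypusine and diphthamide and 0 for mitochondrial factors. The Eif4a1 share differed by -15.4 to -11.9 percentage points without single libraries, with adjusted p = 0.0667 by exact permutation without Ctrl library 1 or 4. Uncalled members near 0 changed sign. With upper quartile scaling these were Eif2b5 (0.026), Eif2s1 (0.027) and Eif3a (0.037). With library size they were Eif2b5 (0.15), Eif4enif1 (0.036), Eif2s1 (0.15), Eif1ad (0.030), Eif3a (0.16), Eif5b (0.094) and Eif2d (0.12). With reference genes they were Eif2b2 (-0.060), Eef2kmt (-0.047), Eif4a3 (-0.0037) and Eif5a (-0.017). Without single libraries the ranges were -0.107 to 0.00637 for Eif2s1, -0.0177 to 0.103 for Eef2kmt, -0.0694 to 0.0178 for Eif2b5, -0.0651 to 0.0067 for Eif3a and -0.0443 to 0.112 for Eif2b2. The cause of these shifts was not tested. Members with few counts and shared sequence limit the precision. The filter left out 24 members, 4 of them without counts.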

Other observations

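Among the rows with -ps symbols that the name rule leaves out, Eif3s6-ps2, whose name carries an older symbol of Eif3e, had 6.85, 8.63, 6.39 and 7.24 CPM in the YAP5SA libraries, against 3.10, 2.54, 4.62 and 4.02 CPM in the Ctrl libraries. The groups did not overlap (log2 fold change 1.01 ± 0.20, edgeR adjusted p = 0.000519), and Eif3e itself had a log2 fold change of 0.96. Eef2-ps2 had 11.2 CPM in YAP5SA and 9.72 CPM in Ctrl, with overlapping groups (log2 fold change 0.20 ± 0.14, adjusted p = 0.226), beside 0.20 for Eef2. Eif4a-ps4, which shares sequence with Eif4a1, had 110.2 CPM in YAP5SA and 92.9 CPM in Ctrl. Its groups did not overlap (log2 fold change 0.25 ± 0.08, edgeR adjusted p = 0.018), beside 0.21 for Eif4a1. Eef1a1-ps1 was not called (log2 fold change 0.25 ± 0.23, edgeR adjusted p = 0.359). Whether reads of the parent genes were counted in these rows was not tested.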
